A study of Arabidopsis thaliana with 3 samples.

Results

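Cytokinin perception in whole Arabidopsis thaliana seedlings was described through 10 genes, the receptors AHK2, AHK3 and AHK4 and the type-B response regulators ARR1, ARR2, ARR10, ARR11, ARR12, ARR14 and ARR18. The genes were chosen by their locus identifiers, and all 10 were found among the 27416 genes of the deposited files. The plants were Col-0 wild type, 3 weeks old, grown on MS plates at 23 ± 2 °C in long days of 16 h (nights of 8 h). Total RNA of whole plants was depleted of ribosomal RNA and sequenced as directional libraries. The series is titled after methylation of adenine in DNA. There was 1 group of 3 libraries, replicates 4, 5 and 6, and no second condition, so levels within these plants and their spread are what the data give. Nothing in the labels says whether the libraries came from separate batches of plants, and the spread may be technical. The levels are FPKM, reads scaled by the length of the gene and by the library total. The file headers name no unit, and RPKM is equally possible.

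Cytokinins are adenine-derived hormones that control cell division, vascular development, greening and leaf ageing. The receptors are histidine kinases that bind the hormone on the lumenal side of membranes, mainly of the endoplasmic reticulum. They pass phosphate through mobile histidine phosphotransfer proteins (AHPs) to response regulators in the nucleus. Type-B regulators carry a receiver domain, which takes the phosphate, and a Myb-like DNA-binding domain, and they switch on the primary response genes. Among those are the type-A regulators, which lack that DNA-binding domain and dampen the signal. Genetic studies gave AHK3 and AHK2 the larger roles in shoots and AHK4 a root vascular role, and placed most type-B function with ARR1, ARR10 and ARR12.

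Whether reads of related members could be confused was examined first, since levels of paralogs can be compared only if their reads can be told apart. For each family, the 60-base stretch of AHK2 or ARR1 that the other members matched best, summed over them, is shown. It lets the members be compared base by base. The sequences are coding sequence of the 10 genes, read from RefSeq's TAIR10.1 assembly in the 5′ to 3′ direction of each gene, and both windows belong to the receiver domains. Capitals mark bases shared by all members of the family, 47 of 60 in the receptors and 34 of 60 in the type-B regulators. The receptor window spans an intron in each gene, at chr5:13911977-13912121 (minus strand) for AHK2, chr1:9491630-9491778 (plus strand) for AHK3 and chr2:363548-363748 (minus strand) for AHK4.
AHK2: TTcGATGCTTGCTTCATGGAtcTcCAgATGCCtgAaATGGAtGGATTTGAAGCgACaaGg
AHK3: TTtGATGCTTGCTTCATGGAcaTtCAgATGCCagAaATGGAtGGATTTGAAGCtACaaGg
AHK4: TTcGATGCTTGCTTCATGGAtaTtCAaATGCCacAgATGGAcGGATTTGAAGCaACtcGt
The window of the type-B regulators lies within 1 exon, for example at chr3:5756865-5756924 (plus strand) in ARR1, chr2:10726427-10726486 (minus strand) in ARR12 and chr5:23503804-23503863 (minus strand) in ARR18.
ARR1: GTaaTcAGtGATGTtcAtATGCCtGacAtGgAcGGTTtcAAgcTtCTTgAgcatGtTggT
ARR2: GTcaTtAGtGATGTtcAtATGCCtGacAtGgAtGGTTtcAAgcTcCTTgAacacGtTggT
ARR10: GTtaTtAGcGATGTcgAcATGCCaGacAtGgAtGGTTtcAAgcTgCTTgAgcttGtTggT
ARR11: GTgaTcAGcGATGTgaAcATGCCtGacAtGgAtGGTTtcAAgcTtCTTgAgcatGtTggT
ARR12: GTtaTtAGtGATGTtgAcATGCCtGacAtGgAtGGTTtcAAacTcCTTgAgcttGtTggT
ARR14: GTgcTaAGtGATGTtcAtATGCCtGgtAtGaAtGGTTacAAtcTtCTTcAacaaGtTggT
ARR18: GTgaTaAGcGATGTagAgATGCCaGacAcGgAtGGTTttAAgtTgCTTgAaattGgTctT
Against the ARR1 window, ARR2 and ARR11 were equal at 54 of 60 bases, ARR12 at 52, ARR10 at 50, ARR14 at 48 and ARR18 at 42. Against the AHK2 window, AHK3 was equal at 54 bases and AHK4 at 49. Even so, the longest run of identical coding bases in any type-B pair was 38, between ARR1 and ARR2 and outside the window shown, and in the receptors 21, between AHK2 and AHK4. None of the 50-base words within the annotated exons of the 10 genes occurred at a second place in the nuclear chromosomes. The read length is not given in the sources used here, and words across exon junctions were not searched.

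The genes lie on all 5 nuclear chromosomes (TAIR10.1). AHK2 (AT5G35750) is at chromosome 5, 13911283 to 13916805, AHK3 (AT1G27320) at chromosome 1, 9486889 to 9492632, and AHK4 (AT2G01830, also WOL or CRE1) at chromosome 2, 362983 to 369707. ARR1 (AT3G16857) is at chromosome 3, 5755714 to 5759443, ARR2 (AT4G16110) at chromosome 4, 9112686 to 9116164, and ARR10 (AT4G31920) at chromosome 4, 15444053 to 15447042. ARR11 (AT1G67710) is at chromosome 1, 25376679 to 25379217, and ARR12 (AT2G25180) at chromosome 2, 10724301 to 10727272. ARR14 (AT2G01760) is at chromosome 2, 332902 to 334760, and ARR18 (AT5G58080) at chromosome 5, 23501605 to 23504169. ARR14 and AHK4 are neighbours at a distance of 28.2 kb. The annotated gene of ARR1 overlaps COBL8 (2.68 ± 0.238 FPKM) by 69 bases on the opposite strand, and that of ARR14 overlaps VIT1 (0.261 ± 0.131 FPKM) by 98 bases. The strand setting of the counting is not given, so reads in those overlaps cannot be assigned with certainty. The other 8 genes overlapped no annotated gene.

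The library totals were 19892527 to 19921241 reads, recovered from the deposited values. Together the 10 genes held 7854, 7905 and 7784 reads in replicates 4, 5 and 6. On the log2(FPKM + 1) scale each pair of libraries had a Pearson's r of 0.998, taken across nuclear protein-coding genes, which are not independent replicates. The libraries differed by somewhat more than counting noise. Over 13902 genes with 100 reads or more, the median ratio of variance to mean was 1.05, where counting alone would give 0.693, and they were kept as 3 libraries. Organ markers matched the whole-plant label in part. All 3 leaf markers were detected, with a sum of 26540 to 26936 FPKM, and 3 of 5 root markers, led by PYK10 at 1196 ± 3.50 FPKM, with a sum of 1217 to 1224 FPKM. The root markers COBL9 and WOX5 had 1 to 5 reads in each library. Of the vascular markers 3 of 4 were detected (sum 39.2 to 40.8 FPKM, IRX3 below 1 FPKM), and of the shoot meristem markers 2 of 4 (sum 25.2 to 27.3 FPKM). WUS was at 0, which allows up to 0.121 FPKM, and CLV3 had 0, 0 and 2 reads. In whole seedlings, fewer cells that express a gene and less RNA per cell cannot be told apart.

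Of the 10 genes, 9 were detected, meaning 1 FPKM or more in every library, where 63.0% of the 27197 nuclear protein-coding genes were. The gene below that level was ARR18. At a stricter threshold of 5 FPKM in every library 7 of 10 remained, against 47.9% of nuclear genes. The median of the 10 genes lay 0.57 above the nuclear median on the log2(FPKM + 1) scale (0.50 to 0.65 in single libraries). It lay below the median of genes at a mean of 1 FPKM or more, by a log2 difference of -0.69. No test was made of the list.

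**Figure D1:**
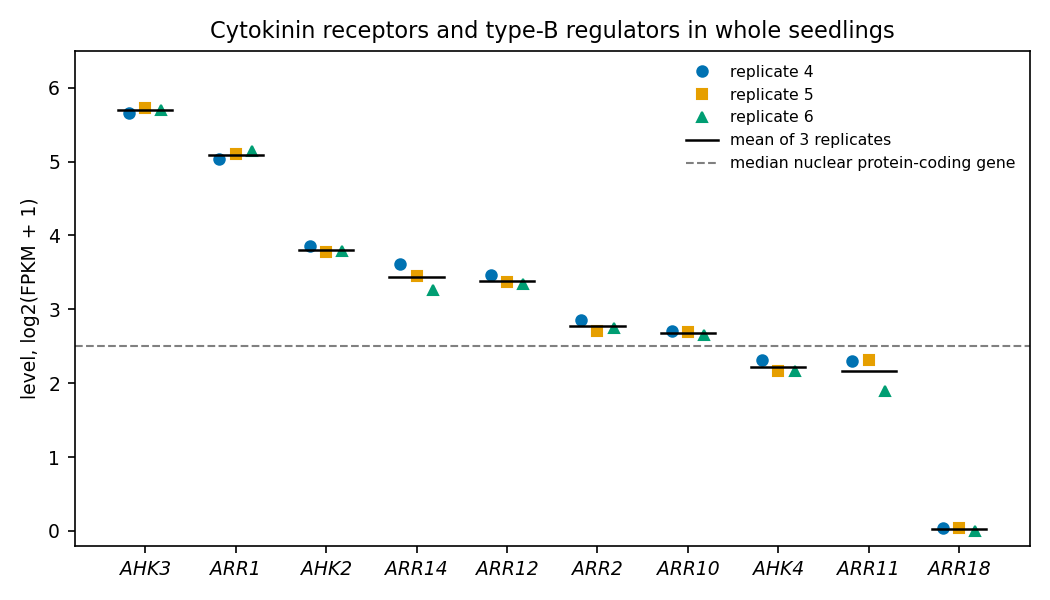
Level of each gene on the log2(FPKM + 1) scale in replicates 4, 5 and 6 (symbols), with the mean over the libraries (bar) and the median nuclear protein-coding gene (dashed line). AHK3 and ARR1 stand above the other genes and ARR18 lies at the bottom. The 7 genes between them lie from 2.17 to 3.81, on both sides of the dashed line (2.51).

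The receptors differed widely in level. AHK3, the receptor best known for delaying leaf ageing, had 49.5, 51.9 and 50.8 FPKM in replicates 4, 5 and 6, a mean of 50.7 ± 1.23 FPKM (SD, n = 3, as for all means below). It was the highest of the 10 genes and higher than 90.9% of nuclear protein-coding genes. AHK2, which acts together with AHK3 in shoots, had 13.5, 12.7 and 12.8 FPKM, a mean of 13.0 ± 0.416 FPKM at the 68.4th percentile. AHK4, needed for vascular cell divisions in the root, had 3.96, 3.50 and 3.50 FPKM, a mean of 3.65 ± 0.268 FPKM at the 46.9th percentile. The libraries of the receptors did not overlap in any pair. The ratio of AHK3 to AHK2 was 3.91 ± 0.212, that of AHK2 to AHK4 3.56 ± 0.142 and that of AHK3 to AHK4 14.0 ± 1.28, each in the same direction in 3 of 3 libraries.

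AHK3 alone held 75.3 ± 1.19% of the summed receptor FPKM, AHK2 19.3 ± 0.760% and AHK4 5.42 ± 0.433%. Behind these levels stood 3510, 3682 and 3597 reads for AHK3, 1047, 988 and 992 for AHK2, and 288, 254 and 254 for AHK4. The values depend on the length used for each gene. The deposited values imply 3562 bp for AHK3, 3903 bp for AHK2 and 3650 bp for AHK4. The longest RefSeq transcripts have 4513, 4459 and 4451 bp. With those lengths AHK3 held 73.6 ± 1.23% of the receptor sum, and the order of the receptors was the same.

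**Figure D2:**
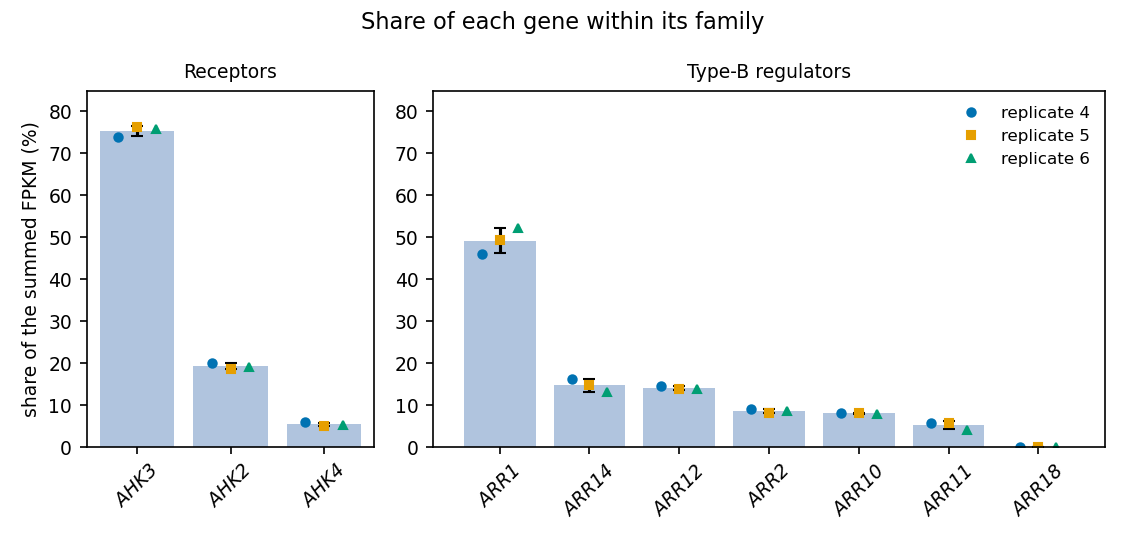
Share of each gene in the summed FPKM of the 3 receptors (left panel) and the 7 type-B regulators (right panel), in percent. Bars are means, error bars SDs over 3 libraries, and symbols single libraries; AHK3 holds 75.3% of the receptor sum and ARR1 49.2% of the type-B sum.

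Among the type-B regulators ARR1 stood above all others. It had 31.7, 33.3 and 34.4 FPKM, a mean of 33.1 ± 1.35 FPKM at the 86.0th percentile of nuclear genes. ARR12 had 10.04, 9.31 and 9.11 FPKM (mean 9.49 ± 0.487), and ARR10 had 5.55, 5.46 and 5.26 FPKM (mean 5.42 ± 0.148). These are the regulators to which genetic work assigns most of the cytokinin response, and their libraries did not overlap. ARR1 had 3.50 ± 0.314 times the level of ARR12 and 6.11 ± 0.413 times that of ARR10, and ARR12 had 1.75 ± 0.053 times that of ARR10, each in 3 of 3 libraries.

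The other type-B members were spread over a wide range. ARR2, which shares the longest run of bases with ARR1, had 6.25, 5.54 and 5.73 FPKM, a mean of 5.84 ± 0.368 FPKM. The ratio of ARR1 to ARR2 was 5.69 ± 0.539. ARR14 had 11.2, 9.94 and 8.62 FPKM, a mean of 9.92 ± 1.28 FPKM, and its libraries overlapped those of ARR12. ARR11 had 3.95, 3.95 and 2.72 FPKM, a mean of 3.54 ± 0.706 FPKM, with replicate 6 below the other two libraries.

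ARR18 was near the limit of detection. It had 0.0264, 0.0264 and 0 FPKM, which were 1, 1 and 0 reads. Its total of 2 reads has an exact Poisson 95% interval of 0.242 to 7.22 reads, and the count of 0 in replicate 6 is compatible with as much as 0.0793 FPKM (3 counts). Both the interval and the limit reflect counting error and nothing else. The next gene in the order, ARR11, had 161, 161 and 111 reads at a similar length.

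As shares of the summed type-B FPKM, ARR1 held 49.2 ± 3.04%, ARR14 14.7 ± 1.59%, ARR12 14.1 ± 0.461%, ARR2 8.67 ± 0.448%, ARR10 8.06 ± 0.053% and ARR11 5.25 ± 0.960%. ARR1, ARR10 and ARR12 together held 71.4 ± 2.62% of the type-B sum, most of it from ARR1. ARR14, outside this group, held a larger share than ARR10 in each library. The share of ARR1 was 46.1, 49.3 and 52.2% in replicates 4, 5 and 6. It was 55.5 ± 2.86% when reads were not divided by gene length, where ARR1 counts for more with its 2507 bp (1405 to 2666 bp over the type-B regulators).

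The order by mean FPKM was AHK3, ARR1, AHK2, ARR14, ARR12, ARR2, ARR10, AHK4, ARR11 and ARR18. Neighbours in this order were called apart where their libraries did not overlap and the mean log2 difference exceeded 2 SD of the differences within libraries. By that rule 3 neighbouring pairs could not be told apart with all libraries. ARR14 and ARR12 differed by 0.05 ± 0.11 on the log2(FPKM + 1) scale, ARR2 and ARR10 by 0.09 ± 0.065 (ARR2 higher within each of 3 libraries), and AHK4 and ARR11 by 0.05 ± 0.21. Without replicate 5 ARR2 and ARR10 were apart (0.13 ± 0.030), and without replicate 6 AHK4 was below ARR11 (-0.07 ± 0.10, not apart). The other 6 neighbouring pairs were apart with all libraries and without any 1 of them. The smallest difference among these 6 was that of AHK2 over ARR14 (0.36 ± 0.14). Without replicate 5 this difference was 0.383 ± 0.191 and exceeded 2 SD only barely. Of all 45 pairs, 42 did not overlap between libraries, and the 3 that did were the same neighbours. No such count was made for pairs of other genes, so 42 of 45 has no background to stand against. With RefSeq's transcript lengths ARR2 and ARR10 no longer overlapped. AHK4 (3.25, 2.87 and 2.87 FPKM in replicates 4, 5 and 6) then lay below ARR11 (3.55, 3.56 and 2.45 FPKM) by mean, and these still overlapped. No p-value is given, because flipping signs over 3 libraries (exact, two-sided) has a smallest possible p of 0.25.

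The sums of the families were close to each other. The 7 type-B regulators summed to 68.7, 67.5 and 65.8 FPKM, a mean of 67.3 ± 1.43 FPKM, and the 3 receptors to 66.9, 68.1 and 67.0 FPKM, a mean of 67.4 ± 0.683 FPKM. The ratio of type-B to receptor sum was 0.9997 ± 0.024 and was above 1 in 1 of 3 libraries. This near equality depends on the lengths behind the values. With the longest RefSeq transcripts the ratio was 1.15 ± 0.025 and above 1 in 3 of 3 libraries. FPKM measures RNA, and the amounts of protein were not measured.

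The spread between libraries was examined for each of the 9 detected genes against the error of counting its reads. AHK2, ARR12, ARR2 and AHK4 had coefficients of variation of 3.20, 5.13, 6.30 and 7.33%, and their ratio of variance to mean lay at the 49.7th to 63.3rd percentile of genes within 2-fold of their read number. In these genes replicate 4 was the library farthest from the others. On the log2(FPKM + 1) scale the SD without replicate 4 was 0.0045 for AHK2, 0.020 for ARR12, 0.030 for ARR2 and 0.00053 for AHK4. With all libraries it was 0.043, 0.066, 0.077 and 0.082. Leaving out the farthest of 3 values always lowers the SD, whichever library it is. For ARR10 the coefficient of variation was 2.72%, below the 6.76% that counting alone would give. Its ratio of variance to mean, 0.162, lay at the 10.2nd percentile of genes within 2-fold of its read number. Of the 9, ARR11 and ARR14 varied most, by 19.9% and 12.9%, where counting alone would give 8.32% and 6.00%. Their ratio of variance to mean was 5.74 and 4.62, at the 98.3rd and 96.3rd percentile of such genes. In both, replicate 6 was lowest, at 77.0% of the gene's mean in ARR11 and 87.0% in ARR14. In ARR11 replicates 4 and 5 both had 161 reads, so its spread rests on replicate 6. For AHK3 and ARR1 the ratios were 2.13 and 2.76, at the 72.9th and 83.8th percentile.

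**Figure D3:**
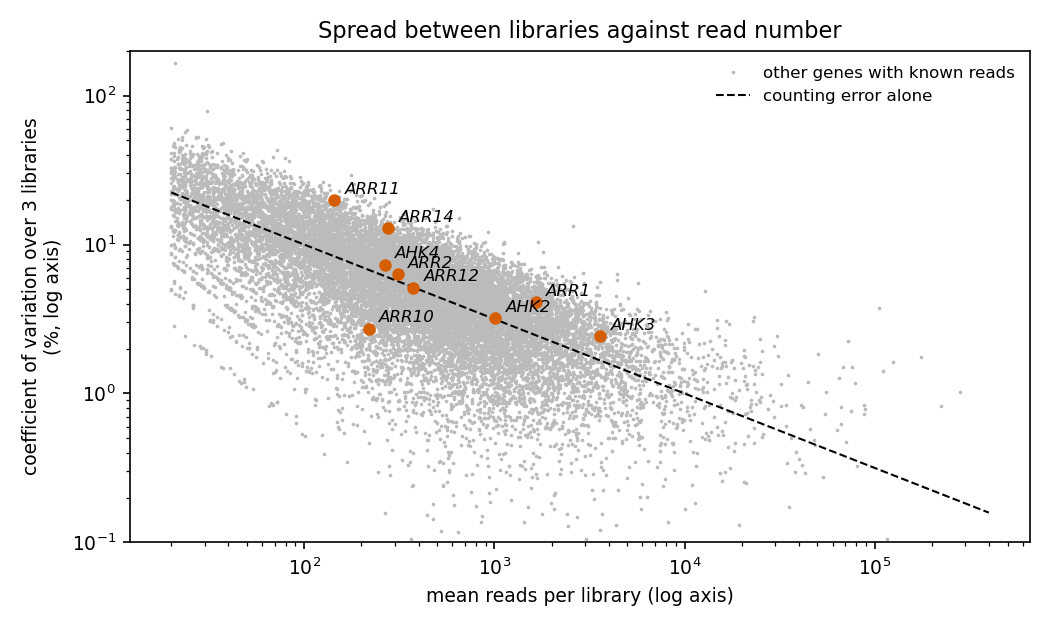
Coefficient of variation over the 3 libraries (%, log axis from 0.1%) against mean reads per library (log axis) for genes with known reads (grey) and the 9 detected genes (orange), with the line that counting error alone would give. ARR11 and ARR14 lie at the upper edge of the cloud and ARR10 below the line.

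The directions of these deviations were not the same in all genes. Replicate 4 was the highest library in 6 of the 9 detected genes (AHK2, AHK4, ARR2, ARR10, ARR12 and ARR14), as it was in 32.6% of all detected nuclear genes. In AHK3 and ARR1, the most abundant ones, it was the lowest (34.3% of detected nuclear genes), at 97.5% and 95.7% of their means. The replicate numbers stand for no order or condition in the labels, and these deviations are given as a description of the libraries.

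**Figure D4:**
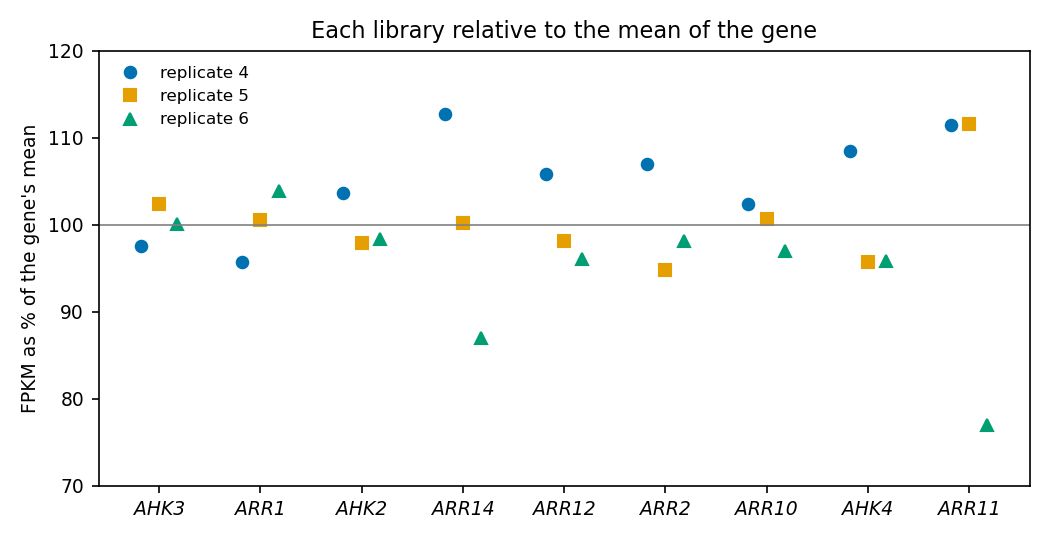
FPKM of each library as a percentage of the gene's mean over 3 libraries, for the 9 detected genes in order of level. Most values lie within 10% of the mean, ARR14 runs from 87.0 to 113% and replicate 6 of ARR11 lies at 77.0%.

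The other genes of the pathway were read from 11 lists with 68 genes, of which 37 were detected (63.0% of nuclear genes were) and 14 were at 0 in every library (18.2% of nuclear genes were). The counts of single lists below stand against the same 63.0%, and no list was tested. The remaining type-B genes ARR13, ARR19, ARR20, ARR21 and ARR23 were all at 0, which allows up to 0.0709 to 0.344 FPKM each. The type-C regulators ARR22 and ARR24, which resemble type-A proteins but are known mainly from reproductive tissue, were at 0 as well. ARR18, with its 2 reads, lay nearest to these genes in level. Of the other histidine kinases, the osmosensor AHK1 had 5.59 ± 0.307 FPKM, AHK5 0.168 ± 0.040 FPKM and CKI1, a kinase of the female gametophyte, was at 0.

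Of the phosphotransfer proteins, which stand between receptors and regulators, 5 of 6 were detected. AHP2 led with 30.4 ± 1.94 FPKM, followed by AHP5 (19.1 ± 1.78), AHP3 (16.0 ± 0.648), AHP4 (3.98 ± 1.26) and AHP1 (3.80 ± 0.472). AHP6, an inhibitor that lacks the phosphate-accepting histidine, had 0.276 ± 0.095 FPKM. AHP1 to AHP5 summed to 73.4 ± 1.63 FPKM, 1.09 ± 0.034 times the receptor sum and 1.09 ± 0.040 times the type-B sum, above both in 3 of 3 libraries. These ratios depend on the lengths as well. With the longest RefSeq transcripts (AHP1, whose length was not clear, kept as deposited) they were 0.996 ± 0.028 and 0.869 ± 0.030, above 1 in 2 and 0 of 3 libraries.

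Downstream, 7 of the 10 type-A regulators were detected, led by ARR4 (54.9 ± 0.843 FPKM) and ARR8 (19.6 ± 0.926 FPKM), with ARR17 at 0. The type-B sum was 0.618 ± 0.018 times the type-A sum of 109 ± 1.17 FPKM, lower in 3 of 3 libraries, and 0.798 ± 0.024 times with RefSeq's lengths (ARR16, of unclear length, as deposited). The KMD genes encode F-box proteins that target type-B regulators for breakdown. KMD4 and KMD1 reached 210 ± 4.40 and 166 ± 2.78 FPKM, above each of the 10 genes in every library. KMD2 had 9.01 ± 0.124 FPKM and KMD3 was at 0. The cytokinin response factors, of the AP2/ERF family, ran from CRF6 (8.99 ± 0.309 FPKM) and CRF2 (7.72 ± 0.717 FPKM) down to CRF1 (0.789 ± 0.385 FPKM), with 5 of 6 detected. CRF5, CRF4 and CRF3 lay between these, at 7.62 ± 1.497, 3.46 ± 0.601 and 1.17 ± 0.243 FPKM.

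Of the 11 IPT and CYP735A genes of hormone synthesis 3 were detected, IPT9 (12.9 ± 0.186 FPKM), IPT2 (3.98 ± 0.406 FPKM) and IPT3 (1.91 ± 0.072 FPKM). IPT9 and IPT2 act on transfer RNA, and IPT3 makes cytokinin precursors from adenine nucleotides. IPT4, IPT6 and IPT8 were at 0. Of the 8 LOG genes, which release the active bases, 4 were detected, with LOG8 (18.8 ± 1.58 FPKM) and LOG1 (16.2 ± 0.686 FPKM) highest and LOG2 lowest (0.047 ± 0.047 FPKM). Of the 7 CKX oxidases, which break cytokinins down, 3 were detected. CKX6 (11.9 ± 1.41 FPKM) and CKX7 (6.90 ± 0.592 FPKM) led and CKX2 was at 0. All 6 genes of transport and glucosylation were detected, from PUP14 (66.0 ± 2.02 FPKM), an importer that limits cytokinin outside the cell, to UGT76C2 (5.91 ± 0.644 FPKM), a cytokinin glucosyltransferase. UGT76C1, the exporter ABCG14, UGT85A1 and PUP1 had 13.0 ± 0.552, 10.8 ± 0.723, 8.03 ± 0.352 and 6.07 ± 0.731 FPKM.

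**Figure D5:**
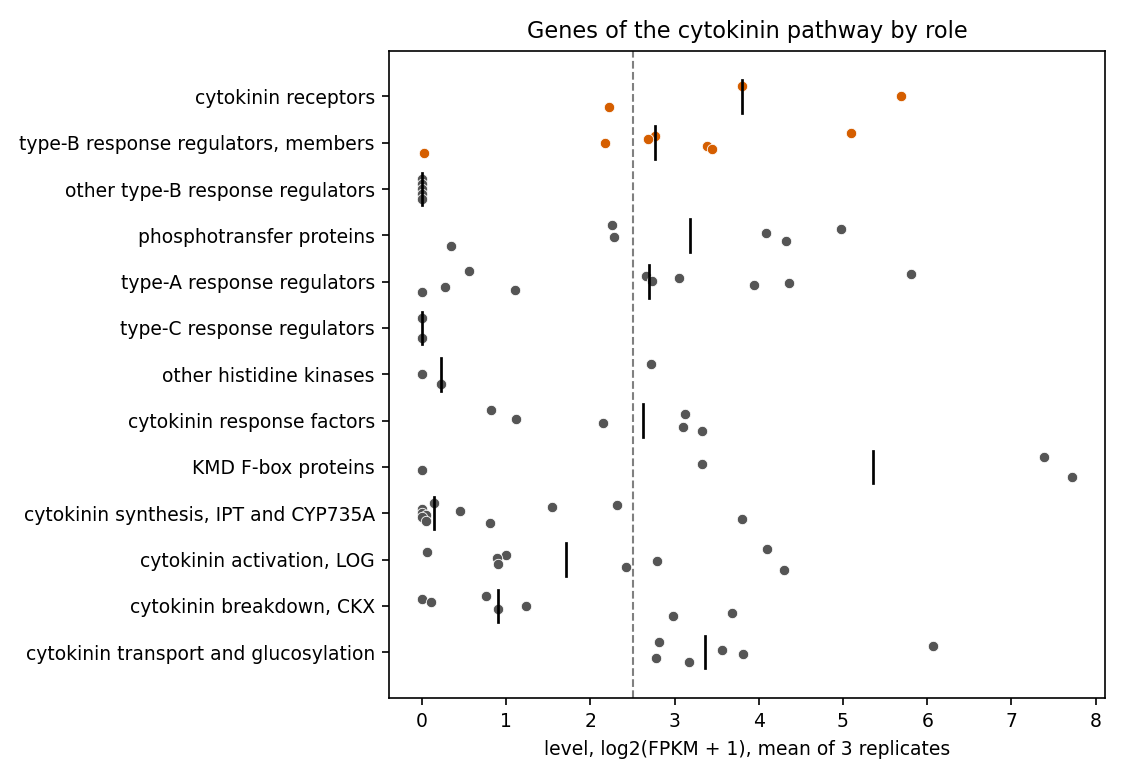
Level of each gene of the cytokinin pathway, mean of log2(FPKM + 1) over 3 libraries, by list (rows). Each dot is a gene, orange for the receptors and the 7 type-B regulators, short black lines are list medians and the dashed line is the median nuclear protein-coding gene; the 5 other type-B genes sit at 0.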

How the data were processed

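The 3 deposited files hold 1 value per gene; TopHat2 2.0.9 and Cufflinks 2.1.1 are listed with the build TAIR10 in the submitters' processing notes, which give no roles. The unit of the deposited values was read as FPKM, computed by the authors, although the headers give none. How reads were counted, including strand and multiple matches, is not given in the sources used here. Library totals and whole reads were recovered from the values: 20667 of 20669 genes above 0 in every library gave whole reads (tolerance 0.0001 reads), and 21010 had a single length above 0.5 and up to 1.1 times the longest annotated transcript, limits set after the lengths of the listed genes had been seen. Tested on simulated data, this step returned the exact reads of 2192 of 2192 genes whose length was clear, with all simulated lengths inside those limits. Recovered reads served for depth and counting error. With 1 group there was nothing to fit a count model to.

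Levels are means ± SD over 3 libraries, and log2 differences use log2(FPKM + 1). The background was 27197 nuclear protein-coding genes, with nuclear identifiers that the annotation lacks kept among them. Coordinates and sequences come from TAIR10.1. Members and lists were chosen with earlier results of these data known. Named genes are all members, the 2 highest and the lowest of each other cytokinin list, all of such lists with 6 or fewer genes, and genes at 0; others, the organ markers among them, were added after their values were seen. Python 3.11.15, numpy 2.4.6, pandas 2.3.3, scipy 1.17.1 and matplotlib 3.10.9 were used.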

Additional observations from a re-analysis of the deposited data

How the results depend on the processing

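The count of detected members (9) was 7 at 5 FPKM and 9 under the other alternatives tried. At 5 FPKM, the alternative run for the other lists, 28 of their 68 genes passed in place of 37; single lists moved further, IPT and CYP735A to 1 in place of 3, phosphotransfer proteins and response factors each to 3 in place of 5. The median of the 10 genes lay 0.65 above the nuclear median with a pseudocount of 0.1, -0.69 from the median of genes averaging at least 1 FPKM, and 0.53 to 0.59 without 1 replicate. With a pseudocount of 0.1 the log2 difference was 3.76 for AHK3 over AHK4 and 1.80 for AHK2 over AHK4, which was 1.65 with the values of every library rescaled to the same sum. With reads over annotated lengths, an alternative chosen after seeing the data, AHK3 exceeded AHK2 by 1.73 and AHK4 by 3.36, AHK2 exceeded AHK4 by 1.63, and AHK3 held 73.6% of the receptor sum. With reads undivided by length the shares were 73.8% for AHK3 and 55.5% for ARR1. The log2 difference of type-B and receptor sums, -0.00074, was 0.19 with annotated lengths and ran from -0.020 to 0.012 without 1 replicate; its sign is not fixed by these data. Nor is that of AHP1 to AHP5 against the receptors (0.12, and -0.0063 with annotated lengths) or against type-B (0.12, and -0.20); type-B against type-A was -0.69, and -0.32 with annotated lengths. Without 1 replicate AHK3 exceeded AHK2 by 1.86 to 1.93 and AHK4 by 3.44 to 3.54, AHK2 exceeded AHK4 by 1.58 to 1.61, AHK3 held 74.8 to 76.0% and ARR1 47.7 to 50.7%, and 42 to 43 of 45 pairs did not overlap. With a library left out, the counts of detected members and of pairs that do not overlap cannot fall. Without 1 replicate, SDs of log2 levels fell by over 1.5 times in AHK2, AHK3, AHK4, ARR1, ARR2 and ARR12 (replicate 4) and in ARR10, ARR11, ARR14 and ARR18 (replicate 6). Such falls are largely built in, since leaving out the library farthest from the others always lowers the SD of 3 values. Of 130 alternative values 99 stayed within the spread between libraries (counts and SDs: within 1.5 times), 25 moved further and 6 changed sign. Of the 99, leaving out replicates 4, 5 and 6 gave 20, 25 and 21. Leaving out 1 of 3 libraries cannot shift a mean by more than the SD over all 3. Differences and shares could therefore not be counted as moved under those settings. No cause was tested. No paired analysis of groups was possible because there is 1 group; differences between genes were taken within libraries. With 3 libraries the SDs themselves are imprecise, and depth limits ARR18 and the genes at 0.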
